A study of Mus musculus with 8 samples.

Results

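The members described here are the 31 entries of the deposited miR count table, of 1755 miR entries in all, whose name carries miR-297, miR-466, miR-467 or miR-669 followed by a letter. They are defined by name. By family they were 1 entry of miR-297 (a shared entry for miR-297a-3p, miR-297b-3p and miR-297c-3p), 12 of miR-466, 5 of miR-467 and 13 of miR-669. Small RNA was sequenced from extracellular vesicles (EVs), the membrane particles that cells release, of oxidative and glycolytic skeletal muscle, to learn whether their miR content differs by muscle type. OXI-EV came from the soleus together with the red gastrocnemius, and GLY-EV from the whole quadriceps. Both were taken from untreated male C57BL/6J mice bought at 10 to 12 weeks of age. In both groups the muscle was teased apart and kept for 24 h in serum-free medium, and the EVs were collected from that medium by ultrafiltration and size exclusion, so vesicles of other cells in the muscle may be among them. Each group had 4 libraries, made from 3 to 8 ng of RNA with a kit that tags each molecule. By the study's methods each preparation held the muscle of 1 leg of an animal, so the 4 libraries of a group were taken as separate mice. Whether libraries of both groups came from the same mouse is not stated in the labels. The paper used a paired comparison of the muscle types for EV release, but states no pairing for the sequenced libraries. Pairing by mouse is therefore possible. The main test below took the libraries as unpaired, and fits with a block by replicate or preparation number are given at the end.

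miRs are short RNAs that guide the silencing machinery to messenger RNAs, mainly through the seed, bases 2 to 8 of the mature strand. The families miR-297, miR-466, miR-467 and miR-669 occur in rodents as a long array of near-identical hairpins inside an intron of Sfmbt2, a Polycomb group gene that is imprinted and read from the paternal copy in extraembryonic tissue, where the array is needed for placental growth. Many of the hairpins consist largely of simple repeats of U with G and of C with A. In the GENCODE M21 annotation (mouse build GRCm38) 81 hairpins of the 4 families were found. Of these, 71 lay within Sfmbt2 (chromosome 2, bases 10370510 to 10595253, plus strand), all within 51617 bases from 10466663 to 10518279, and 39 of the 71 belong to members. For 23 members every hairpin lay in this intron, on the strand of Sfmbt2. The shared miR-297 entry has hairpins there and another on chromosome 7 (10958437 to 10958512), and 7 members have their hairpin elsewhere. These 7 are miR-466i-5p and miR-466i-3p (chromosome 13, in an intron of Cdk13 and on the opposite strand), miR-466j (chromosome 10, in no annotated gene), miR-466k (chromosome 3, intron of Gm37240, opposite strand), miR-466q (chromosome 3, intron of Tnik, same strand), miR-467f (chromosome 11, intron of Fxr2, opposite strand) and miR-669n (chromosome 3, intron of Slc30a7, opposite strand).

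Mature sequences from RefSeq (GRCm38.p6) matched 6 of the 31 members, all of them among the 7 with a hairpin elsewhere. They are shown because they make the repeats of these families visible, with the seed in capitals.
miR-466i-3p (chr13:17747552-17747573, plus): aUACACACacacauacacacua
miR-466j (chr10:60960802-60960824, plus): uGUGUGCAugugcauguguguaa
miR-466k (chr3:85467396-85467418, plus): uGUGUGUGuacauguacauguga
miR-466q (chr3:28419988-28420007, plus): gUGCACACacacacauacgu
miR-467f (chr11:69635419-69635439, minus): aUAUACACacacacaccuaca
miR-669n (chr3:115979905-115979924, plus): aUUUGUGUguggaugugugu

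These strands are of opposite kinds. miR-466i-3p, miR-466q and miR-467f each hold ACACAC, as do 0.655% of the 1679 mature sequences in the table, whereas miR-466j, miR-466k and miR-669n each hold GUGUGU, as do 1.01%; both motifs were searched on the strand of the miR itself. The longest run of an alternating pair of bases was 12 bases in miR-466q and in miR-467f and 7 in miR-466j. The 6 seeds all differed from each other, and no other mature sequence in the table had the same bases 2 to 8 as any of them. Bases 2 to 7 of miR-467f also occur in 6 others, let-7a-1-3p, let-7b-3p, let-7c-2-3p, let-7f-1-3p, let-7f-2-3p and miR-98-3p. The hairpin of miR-466k, shown with the mature strand in capitals (bases 20 to 42 of 122), held GUGUGU at 12 overlapping places and ACACAC at 0. At least 1 GUGUGU was found in 4.98% of the 1005 hairpins in the table.
Mir466k (chr3:85467377-85467498, plus): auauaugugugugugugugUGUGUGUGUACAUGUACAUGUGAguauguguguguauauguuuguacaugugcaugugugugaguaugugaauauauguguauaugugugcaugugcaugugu

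All values below are deposited counts, or these divided by the mapped reads of the library and given per 1000000 mapped reads (CPM). The libraries held 4151145 to 4867396 mapped reads and 348730 to 572106 miR counts in OXI-EV, against 5179262 to 7197716 mapped reads and 587068 to 1004011 miR counts in GLY-EV. A count stood for 3.14 to 4.69 miR reads in the OXI-EV libraries and for 2.63 to 4.94 in the GLY-EV libraries. The muscle miRs miR-206-3p, miR-1a-3p, miR-486a-5p, miR-133b-3p and miR-133a-3p together stood at 52009 to 84399 CPM in OXI-EV, against 64942 to 122499 CPM in GLY-EV. Markers of other cells were present in both groups. The endothelial pair miR-126a-3p and miR-126a-5p summed to 53.1 to 198 CPM in OXI-EV, against 201 to 772 CPM in GLY-EV, the smooth muscle pair miR-143-3p and miR-145a-5p to 265 to 503 CPM in OXI-EV, against 782 to 2031 CPM in GLY-EV, and the neural pair miR-124-3p and miR-9-5p to 1.38 to 138 CPM in OXI-EV, against 2.08 to 6.50 CPM in GLY-EV. Erythroid miRs summed to 3.45 to 63.6 CPM in OXI-EV, against 4.58 to 26.8 CPM in GLY-EV, leukocyte miRs to 17.6 to 44.8 CPM in OXI-EV, against 22.6 to 101 CPM in GLY-EV, fibroblast miRs to 6.67 to 31.6 CPM in OXI-EV, against 20.1 to 95.6 CPM in GLY-EV, and the liver miR miR-122-5p was at 1.15 to 7.71 CPM in OXI-EV, against 1.95 to 4.44 CPM in GLY-EV. The part of these cells in the values of the members was not tested.

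A property of the count table bears on all low values. The 8 libraries fell into 4 pairs that share their zeros: OXI-EV replicates 1 and 4, OXI-EV replicate 2 with GLY-EV replicate 4, OXI-EV replicate 3 with GLY-EV replicate 2, and GLY-EV replicates 1 and 3. Within such a pair a miR was at 0 in both libraries or had at least 10 counts in the higher of them. In 8 instances a miR was at 0 in a single library of such a pair, none of them a member. Between libraries of different pairs, 137 to 258 of the 1755 miRs were at 0 in a single library. A listed 0 can thus stand for up to 9 counts, and no ratio is given here against a library listed at 0. The fitted changes of the 4 members tested that have such zeros (miR-466g, miR-466q, miR-669h-5p and the entry of miR-669a-5p and miR-669p-5p) took each 0 as it stands. In 2 of the 4 pairs both groups are present, and the other 2 hold a single group each. The reason for the shared zeros was not tested.

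**Figure D1:**
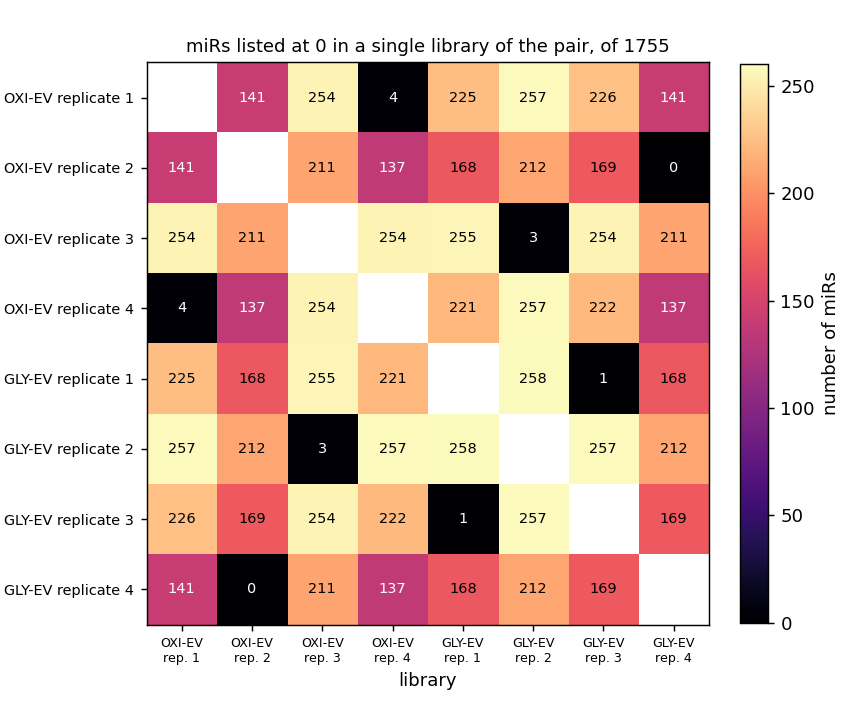
For each pair of the 8 libraries (both axes, OXI-EV before GLY-EV), the cell gives the number of the 1755 miRs that are listed at 0 in a single library of the 2. In 4 library pairs the number is 0 to 4, and in all others it is 137 to 258.

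The members were rare, and many were near the limit of what the table lists. The median over the 31 members of the mean count per library was 10.9, against 22.9 for all 1755 miRs, and 27 of the 31 were below the median miR. None of the 31 reached a mean count of 100, as 130 of the 1755 miRs did. The highest single value was 239 counts, for miR-466i-5p in GLY-EV replicate 4. A 0 was listed for 19 of the 31 members (61.3%) in at least 1 library, against 21.3% of all miRs, 18.7% of the 91 entries of the Dlk1-Dio3 cluster, the other large imprinted miR cluster of the mouse, and 23.0% of 366 mirtron-type entries. Of the 248 values of the members, 62 were listed at 0, 27 of 124 in OXI-EV and 35 of 124 in GLY-EV. Each library had 7, 2, 11 and 7 members at 0 in OXI-EV replicates 1 to 4, and 11, 11, 11 and 2 in GLY-EV replicates 1 to 4, so the numbers followed the library pairs above.

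**Figure D2:**
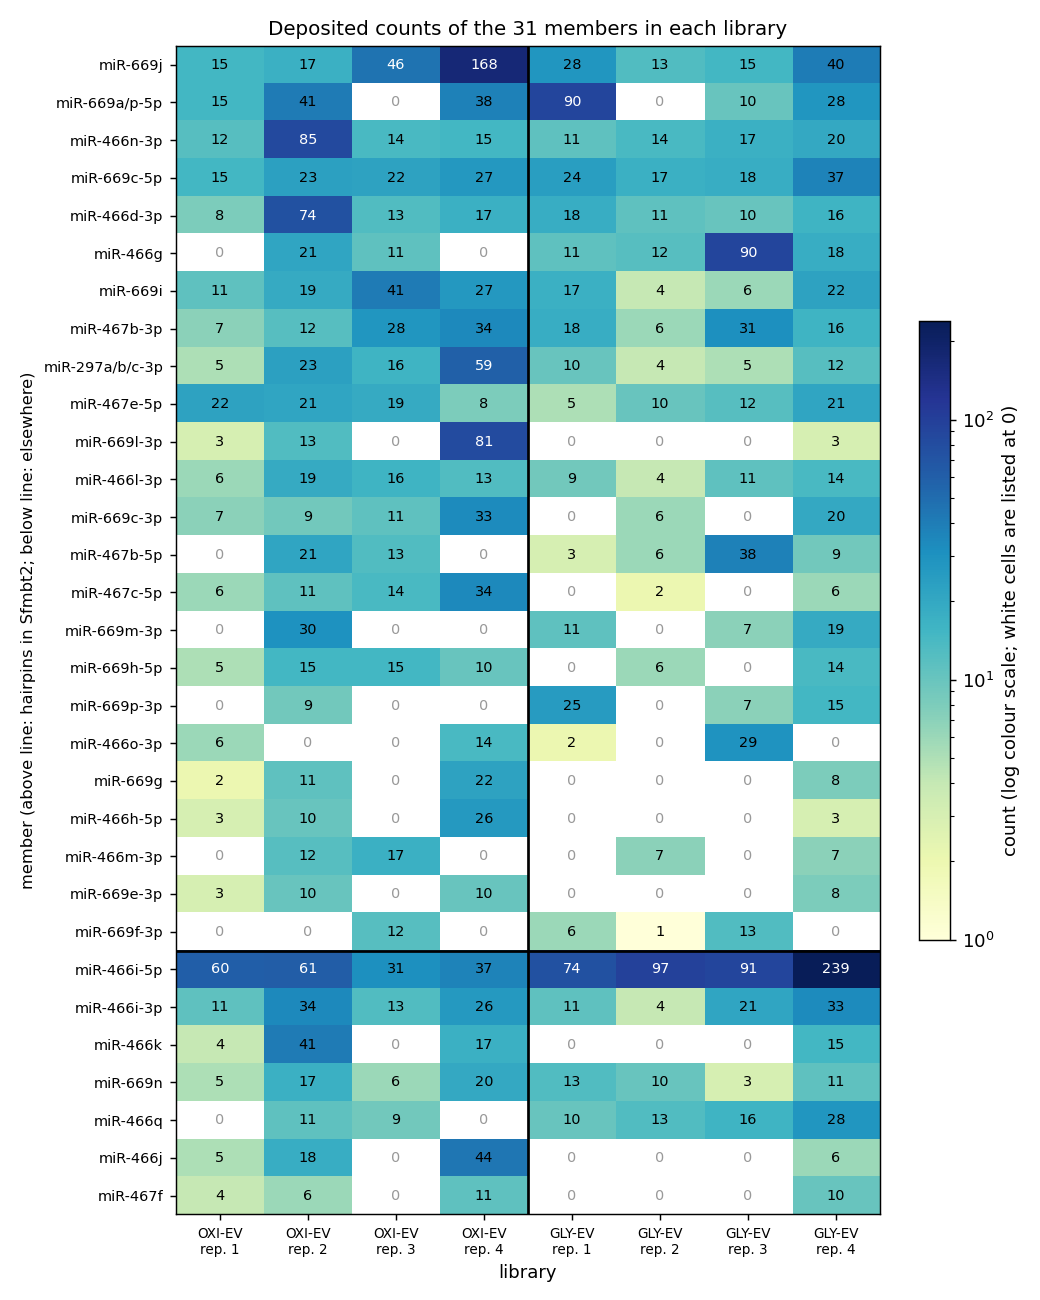
Deposited counts of each of the 31 members (rows) in each library (columns, the 4 OXI-EV libraries left of the 4 GLY-EV libraries), coloured on a log scale, with listed zeros left white. miR-466i-5p has the highest count in 4 of the libraries, reaching 239, and 7 members are counted only in OXI-EV replicates 1, 2 and 4 and GLY-EV replicate 4.

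Summed over the 31 members, OXI-EV held 240, 694, 367 and 791 counts in replicates 1 to 4, and GLY-EV 396, 247, 450 and 698. This was 55.2, 167, 78.6 and 163 CPM in OXI-EV, and 57.2, 34.3, 78.8 and 135 CPM in GLY-EV. The groups overlapped: OXI-EV replicates 2 and 4 and GLY-EV replicate 4 were the highest, and OXI-EV replicate 1 was below 3 of the GLY-EV libraries. OXI-EV replicates 2 and 4 and GLY-EV replicate 4 also had the fewest reads per count, at 3.76, 3.14 and 2.63, against 4.14 to 4.94 in the other libraries. The median count of all miRs was highest in the same 3 libraries, at 25, 26 and 28, against 13 to 22 in the others, and the part of this in the sums was not tested. The mean was 116 ± 57.4 CPM in OXI-EV, against 76.3 ± 43.0 CPM in GLY-EV (SD, n = 4 each, listed zeros entered as 0), a ratio of 1.52. On the log2 scale this ratio was 0.60, and 0.19 with TMM scaling, which takes most miRs as equal. The median fitted log2 fold change of all miRs tested, a different measure, was 0.48 on the mapped-read scale. The neural miRs were also highest in OXI-EV replicates 4 and 2, at 138 and 20.7 CPM, against at most 6.50 CPM in the other libraries. So was the liver miR miR-122-5p, at 6.37 and 7.71 CPM, against at most 4.44 CPM. Erythroid miRs were highest in OXI-EV replicate 2. The muscle, endothelial, smooth muscle, leukocyte and fibroblast miRs were highest in GLY-EV replicate 4. The part of these cells in the sums was not tested. Because the EVs are a mixture, fewer vesicles of a kind and less RNA per vesicle cannot be told apart in these values. As a share of all miR counts the members made up 0.121 ± 0.0466% in OXI-EV, against 0.0567 ± 0.0204% in GLY-EV. The highest share of a single library was 0.175% (95% Wilson interval 0.162 to 0.188%), in OXI-EV replicate 2, and the lowest 0.0318% (0.0281 to 0.0360%), in GLY-EV replicate 2. These intervals cover counting error only.

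**Figure D3:**
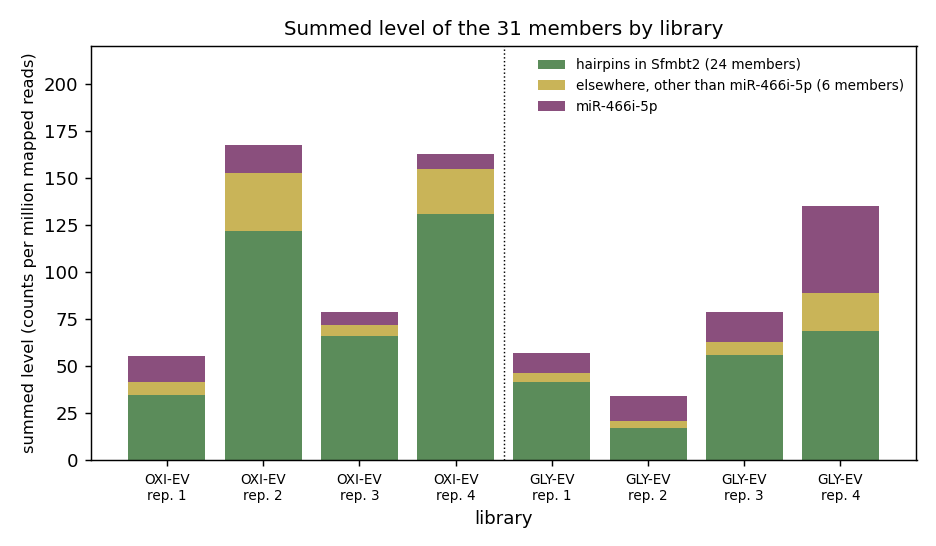
Stacked bars give the summed level of the 31 members in each library, in counts per 1000000 mapped reads, OXI-EV left of GLY-EV. The parts are the 24 members with hairpins in Sfmbt2, 6 members with hairpins elsewhere, and miR-466i-5p. OXI-EV replicates 2 and 4 are the highest at 167 and 163 CPM, and the groups overlap.

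Of the 7 members with the lower mean CPM in OXI-EV, miR-466i-5p was the most abundant. It supplied 25.0, 8.79, 8.45 and 4.68% of the members' counts in OXI-EV replicates 1 to 4, and 18.7, 39.3, 20.2 and 34.2% in GLY-EV replicates 1 to 4. Without it the remaining 30 members summed to 105 ± 57.4 CPM in OXI-EV, against 54.7 ± 28.5 CPM in GLY-EV, a ratio of 1.92. As miR-466i-5p was lower in OXI-EV, leaving it out could only raise the ratio, and no member higher in OXI-EV was left out in turn. The member with the most counts was miR-466i-5p in OXI-EV replicate 1 and in GLY-EV replicates 2, 3 and 4, miR-466n-3p in OXI-EV replicate 2, miR-669j in OXI-EV replicates 3 and 4, and the shared entry of miR-669a-5p and miR-669p-5p in GLY-EV replicate 1. The leading member thus changed from library to library in both groups.

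For the test of OXI-EV against GLY-EV, edgeR's quasi-likelihood test was fitted to all miRs that reached 10 counts in 4 or more libraries, with mapped reads as library size. Of 1569 such miRs 16 were members, and 12 of these 16 had a count in every library. None of the 16 passed an adjusted p of 0.05 (Benjamini-Hochberg over the 1569 miRs), against 1.85% of all miRs tested, 0.0637% higher and 1.78% lower in OXI-EV. DESeq2, which gave an adjusted p for 4 of the 16, called 0 of these 4, against 10.5% of the 821 miRs with an adjusted p. At an unadjusted p under 0.05, edgeR gave 2 members higher in OXI-EV and 0 lower, against 9.05% of all miRs higher and 5.42% lower, and DESeq2 also gave 2 higher (9.5% of all miRs) and 0 lower (5.74%). The values of the groups overlapped in each of the 16, whereas there was no overlap in 8.22% of all miRs. The other 15 members were not tested, since only 2 or 3 of their libraries reached 10 counts. On simulated data of this size, edgeR called 15.1% of miRs changed by 2 on the log2 scale and 0% of those changed by 1, so changes of this size were mostly not detectable at this depth and spread. The changed miRs were drawn from all miRs that passed the filter. These shares are thus not those of the members, most of which were rarer than the median miR.

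The fitted log2 fold changes (OXI-EV minus GLY-EV) of the 16 members tested ran between -1.60 and 2.10, and 13 of the 16 (81.25%) were above 0, as were 78.4% of all miRs tested. Their median was 0.87, against 0.48 for all miRs. With TMM scaling, which takes most miRs as equal, the medians were 0.43 and 0.09, with 11 of the 16 members above 0, and with the total miR count as library size they were 1.34 and 0.98. The median over all miRs moved by more than 0.1 between these scales, and the members' median lay 0.39, 0.33 and 0.36 above it on the 3 scales. Without OXI-EV replicate 2 the members' median was 0.28, against 0.29 for all miRs. The place of the members above the other miRs therefore rested on that library.

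**Figure D4:**
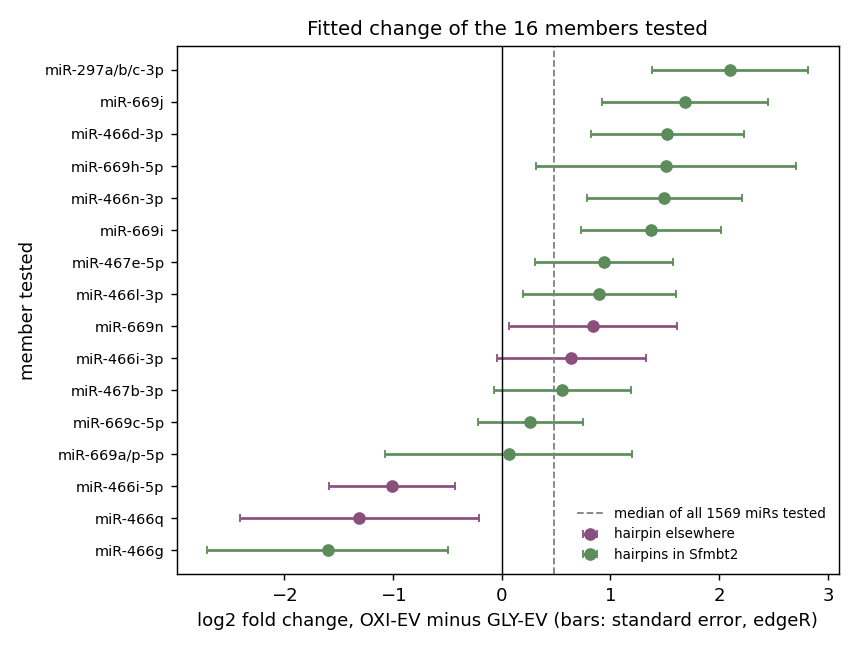
Fitted log2 fold change, OXI-EV minus GLY-EV, of the 16 members tested (edgeR, bars are standard errors), coloured by where the hairpins lie. The dashed line is the median of all 1569 miRs tested, 0.48. 13 members lie above 0, between 0.06 and 2.10, and none passed the adjusted threshold.

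Of the members at Sfmbt2, the entry of miR-297a-3p, miR-297b-3p and miR-297c-3p, whose hairpins give products of the same name in 5 places of the intron, had the highest fold change. It had 5, 23, 16 and 59 counts in OXI-EV replicates 1 to 4, and 10, 4, 5 and 12 in GLY-EV replicates 1 to 4. On the CPM scale this was 5.56 ± 4.73 in OXI-EV, against 1.30 ± 0.772 in GLY-EV (SD, n = 4 each). OXI-EV replicate 4 was the highest, and OXI-EV replicate 1 fell within the GLY-EV range. The log2 fold change was 2.10 (standard error, SE, 0.72, unadjusted p = 0.0125, adjusted p = 0.224 by edgeR). An exact two-sided permutation test over the libraries gave p = 0.0857, where 0.0286 is the smallest that 4 against 4 allow. Without OXI-EV replicate 4 the log2 fold change was 1.37. Only with the total miR count as library size did it pass the threshold (2.52, adjusted p = 0.0355 by edgeR), on a scale where 15.0% of all miRs did, 12.0% higher in OXI-EV.

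The miR-669 family gave the next member. miR-669j had 15, 17, 46 and 168 counts in OXI-EV replicates 1 to 4, and 28, 13, 15 and 40 in GLY-EV replicates 1 to 4. Its mean of 13.0 ± 14.6 CPM in OXI-EV, against 4.05 ± 2.62 CPM in GLY-EV, came largely from OXI-EV replicate 4. The log2 fold change was 1.68 (SE 0.77, adjusted p = 0.334 by edgeR), and 0.53 without that library.

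miR-669i had 11, 19, 41 and 27 counts in OXI-EV, and 17, 4, 6 and 22 in GLY-EV. It was more even among the OXI-EV libraries, at 5.36 ± 2.60 CPM in OXI-EV, against 2.08 ± 1.66 CPM in GLY-EV. Its log2 fold change of 1.37 (SE 0.64, adjusted p = 0.344 by edgeR) went with an exact permutation p = 0.0571, and it passed the threshold only when scaled to the total miR count (2.01, adjusted p = 0.0460 by edgeR). miR-669c-5p, the product of a miR described as rising in ageing mouse liver, was the steadiest of the abundant members in OXI-EV. It had 15, 23, 22 and 27 counts in OXI-EV, and 24, 17, 18 and 37 in GLY-EV. Its log2 fold change was 0.26 (SE 0.48, adjusted p = 0.809 by edgeR), and -0.09 with TMM scaling.

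The entry that miR-669a-5p and miR-669p-5p share is a product of many hairpin copies along the array, and in mouse heart progenitors miR-669a is known to restrain the muscle regulator MyoD. It had 15, 41, 0 and 38 counts in OXI-EV replicates 1 to 4, and 90, 0, 10 and 28 in GLY-EV replicates 1 to 4. Its zeros fell in OXI-EV replicate 3 and GLY-EV replicate 2, which form a library pair, and its highest value was in GLY-EV. The log2 fold change was 0.06 (SE 1.14, adjusted p = 0.982 by edgeR), and -0.29 with TMM scaling, so that no direction could be given. The remaining member of the family tested at this locus, miR-669h-5p, had 1.51 (SE 1.20, adjusted p = 0.555 by edgeR).

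In the miR-466 family 2 neighbours within the intron, miR-466d-3p and miR-466n-3p, had a similar pattern. miR-466d-3p had 8, 74, 13 and 17 counts in OXI-EV, and 18, 11, 10 and 16 in GLY-EV. miR-466n-3p had 12, 85, 14 and 15 counts in OXI-EV, and 11, 14, 17 and 20 in GLY-EV. In both, OXI-EV replicate 2 stood apart, and the other OXI-EV libraries lay at or near the GLY-EV range. The log2 fold changes were 1.52 for miR-466d-3p (SE 0.70, adjusted p = 0.338 by edgeR) and 1.49 for miR-466n-3p (SE 0.71, adjusted p = 0.352). Without OXI-EV replicate 2 they were 0.28 for miR-466d-3p and 0.19 for miR-466n-3p. As near-identical members may share reads, the 2 may not be separate measurements.

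miR-466g had the lower fitted level in OXI-EV, and its highest count was in GLY-EV replicate 3. It had 0, 21, 11 and 0 counts in OXI-EV replicates 1 to 4, and 11, 12, 90 and 18 in GLY-EV replicates 1 to 4. Its fitted log2 fold change was -1.60 (SE 1.11, adjusted p = 0.510 by edgeR) and was -0.27 without GLY-EV replicate 3. Over all fits tried it ran from -3.61 to 0.52, the highest value coming with a block for the library pairs that share zeros, a setting chosen after seeing the data. With that block the group difference rests on OXI-EV replicates 2 and 3 and GLY-EV replicates 2 and 4. The remaining pairs, among them that of GLY-EV replicate 3, hold a single group each. miR-466l-3p, described as stabilizing the mRNA of the cytokine IL-10, had 6, 19, 16 and 13 counts in OXI-EV, and 9, 4, 11 and 14 in GLY-EV. Its log2 fold change was 0.90 (SE 0.71, adjusted p = 0.550 by edgeR).

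The members tested from the miR-467 family at Sfmbt2 had fitted changes above the median of all miRs, 0.48, and did not pass the adjusted threshold. miR-467, as a family, is described as repressing the angiogenesis inhibitor thrombospondin-1 under high glucose. miR-467e-5p had 22, 21, 19 and 8 counts in OXI-EV, and 5, 10, 12 and 21 in GLY-EV, with 3 OXI-EV libraries above 3 GLY-EV libraries. Its log2 fold change was 0.94 (SE 0.64, adjusted p = 0.503 by edgeR). miR-467b-3p had 7, 12, 28 and 34 counts in OXI-EV, and 18, 6, 31 and 16 in GLY-EV. The groups overlapped throughout, and the fitted value was 0.56 (SE 0.63, adjusted p = 0.696 by edgeR).

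Of the members with a hairpin elsewhere, miR-466i could be followed on both arms, which come from the same precursor. miR-466i-5p had 60, 61, 31 and 37 counts in OXI-EV replicates 1 to 4, and 74, 97, 91 and 239 in GLY-EV replicates 1 to 4. On the CPM scale it stood at 13.8, 14.7, 6.64 and 7.60 in OXI-EV, and at 10.7, 13.5, 15.9 and 46.1 in GLY-EV. All OXI-EV counts were below all GLY-EV counts, whereas after division by mapped reads the groups overlapped, with GLY-EV replicate 4, the library with the fewest reads per count, far above the others. The log2 fold change was -1.01 (SE 0.58, adjusted p = 0.415 by edgeR, with an exact permutation p = 0.200), and -0.32 without GLY-EV replicate 4.

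The other arm, miR-466i-3p, whose CA repeat is printed above, had 11, 34, 13 and 26 counts in OXI-EV replicates 1 to 4, and 11, 4, 21 and 33 in GLY-EV replicates 1 to 4, and a log2 fold change of 0.64 (SE 0.69, adjusted p = 0.673 by edgeR). This was 1.29 without GLY-EV replicate 4 and 0.24 without OXI-EV replicate 2. The ratio of 5p to 3p counts was 5.45, 1.79, 2.38 and 1.42 in OXI-EV replicates 1 to 4, and 6.73, 24.3, 4.33 and 7.24 in GLY-EV replicates 1 to 4. It was above 1 in every library, and OXI-EV replicate 1 fell within the GLY-EV range. This ratio was chosen after its values were seen and was not tested. For miR-669c the ratio of 5p to 3p counts was 2.14, 2.56, 2.00 and 0.818 in OXI-EV, and 2.83 and 1.85 in GLY-EV replicates 2 and 4, the 3p arm being listed at 0 in GLY-EV replicates 1 and 3. The remaining members tested from other loci were miR-466q, with -1.31 (SE 1.10, adjusted p = 0.580 by edgeR), and miR-669n, with 0.84 (SE 0.77, adjusted p = 0.621).

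Split by locus, the 23 members with every hairpin in Sfmbt2 summed to 33.6, 116, 62.5 and 119 CPM in OXI-EV replicates 1 to 4, and to 40.2, 16.5, 55.0 and 66.4 CPM in GLY-EV replicates 1 to 4. The means were 82.7 ± 41.8 CPM in OXI-EV, against 44.5 ± 21.5 CPM in GLY-EV (SD, n = 4 each), a ratio of 1.86. The 7 members elsewhere were at 27.6 ± 14.2 CPM in OXI-EV, against 30.5 ± 23.9 CPM in GLY-EV, a ratio of 0.905. miR-466i-5p, the most abundant of these 7, was at a mean of 10.7 CPM in OXI-EV, against 21.6 CPM in GLY-EV, and weighs heavily on this ratio. Of the others elsewhere only miR-466q was also lower in OXI-EV, at 1.14 CPM, against 2.86 CPM in GLY-EV. Higher in OXI-EV than in GLY-EV were miR-466i-3p (4.71 against 3.05 CPM), miR-466j (3.63 against 0.290 CPM) and miR-466k (3.57 against 0.724 CPM). So were miR-467f (1.16 against 0.483 CPM) and miR-669n (2.66 against 1.48 CPM), with listed zeros entered as 0. The lower sum of the members elsewhere in OXI-EV thus came from miR-466i-5p. Among members tested, 10 of 11 at Sfmbt2 had a log2 fold change above 0 (median 0.94), and 2 of 4 elsewhere (median -0.19). The difference between the loci was not tested.

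By family, miR-466 members summed to 47.2 ± 31.5 CPM in OXI-EV, against 42.6 ± 26.5 CPM in GLY-EV, miR-467 members to 14.9 ± 4.07 CPM in OXI-EV, against 8.31 ± 5.58 CPM in GLY-EV, and miR-669 members to 48.1 ± 30.7 CPM in OXI-EV, against 24.0 ± 16.2 CPM in GLY-EV. The groups overlapped in each of these families. By arm, the 14 entries named 3p had a ratio of 2.15 between OXI-EV and GLY-EV, the 8 named 5p of 0.954, and the 9 with no arm in the name of 1.91. miR-466i-5p, the most abundant member, belongs to both the 5p entries and the miR-466 family. Its mean was 10.7 CPM in OXI-EV, against 21.6 CPM in GLY-EV, so it lowered the ratio of both sets. Of the 5 entries named 5p that were tested, 4 had a fitted change above 0, and miR-466i-5p alone was below. In the miR-466 family 4 of 7 tested were above 0. Differences between arms or families were not tested, and these values do not establish any.

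Along the intron, 20 members come from a single hairpin, and they lie in 2 stretches. In the first, 96.2 to 111 kb from the start of Sfmbt2, 10 members summed to 9.66, 25.8, 27.8 and 74.6 CPM in OXI-EV replicates 1 to 4, and to 8.24, 4.86, 22.1 and 18.7 CPM in GLY-EV replicates 1 to 4. In the last, 135 to 148 kb from the start, 10 members summed to 20.5, 71.3, 34.7 and 36.2 CPM in OXI-EV, and to 13.7, 11.7, 28.7 and 35.7 CPM in GLY-EV. OXI-EV replicate 4 was thus the highest library in the first stretch and OXI-EV replicate 2 in the last. The 24 hairpins between them, 113 to 133 kb from the start, gave no member with a single hairpin. The bounds of the stretches were chosen after the data were seen.

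**Figure D5:**
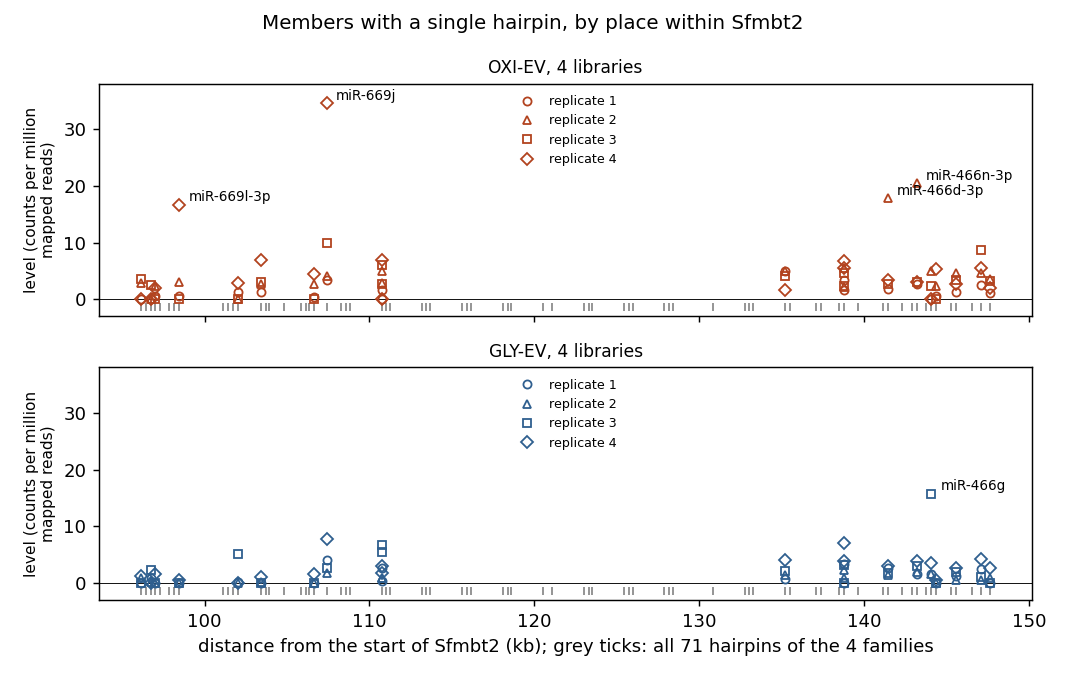
Level of the 20 members with a single hairpin in Sfmbt2, in counts per 1000000 mapped reads for each library (symbols), against the distance of the hairpin from the start of the gene in kb, with OXI-EV above GLY-EV. Grey ticks mark all 71 hairpins. The highest values belong to single libraries, as for miR-669j (34.5 CPM, OXI-EV replicate 4) and miR-466n-3p (20.5 CPM, OXI-EV replicate 2).

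Among the 15 members not tested, the listed zeros also followed the library pairs. 7 of them (miR-466h-5p, miR-466j, miR-466k, miR-467f, miR-669e-3p, miR-669g and miR-669l-3p) were counted in OXI-EV replicates 1, 2 and 4 and in GLY-EV replicate 4, and listed at 0 in the other 4 libraries. This is 22.6% of the members, against 3.19% of all miRs, and miRs of like abundance were not compared. Those 4 libraries make up 2 whole pairs, so a member listed in just these pairs has a 3 to 1 split between the groups. Why these 7 members were listed in those pairs and not in the remaining ones was not tested. miR-669l-3p had 3, 13, 0 and 81 counts in OXI-EV replicates 1 to 4, and 0, 0, 0 and 3 in GLY-EV replicates 1 to 4. miR-466h-5p, described as promoting apoptosis in mouse cells, had 3, 10, 0 and 26 counts in OXI-EV, and 0, 0, 0 and 3 in GLY-EV. miR-466k, the repeat hairpin printed above, had 4, 41, 0 and 17 counts in OXI-EV, and 0, 0, 0 and 15 in GLY-EV. In all 3 the highest counts were in OXI-EV replicate 2 or 4.

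miR-467c-5p, named after its values were seen, had 6, 11, 14 and 34 counts in OXI-EV replicates 1 to 4, and 0, 2, 0 and 6 in GLY-EV replicates 1 to 4. As listed its OXI-EV levels of 1.38 to 6.99 CPM lay above its GLY-EV levels of 0 to 1.16 CPM, but the GLY-EV zeros may hide up to 9 counts. miR-467b-5p had 0, 21, 13 and 0 counts in OXI-EV, and 3, 6, 38 and 9 in GLY-EV, and as its OXI-EV zeros can stand for up to 9 counts no direction is given. The other members not tested, miR-466m-3p, miR-466o-3p, miR-669c-3p, miR-669f-3p, miR-669m-3p and miR-669p-3p, had highest counts of 13 to 33. Over the 31 members, 24 had the higher mean CPM in OXI-EV, as did 77.7% of all miRs. For 20 members the highest CPM was in OXI-EV replicate 2 (9) or 4 (11), libraries in which 30.3% and 22.7% of all miRs were highest.

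Within the library pairs that hold both groups, no member was listed at 0 in a single library. A member was listed there only if the higher of the 2 libraries had at least 10 counts, so the numbers below still depend on that limit. Of the 29 members listed in OXI-EV replicate 2 and GLY-EV replicate 4, 21 (72.4%) were higher and 8 lower in OXI-EV on the CPM scale, against 53.8% of all miRs listed there higher, and the sums were 167 CPM in OXI-EV replicate 2 and 135 CPM in GLY-EV replicate 4, a ratio of 1.24. Of the 20 members listed in OXI-EV replicate 3 and GLY-EV replicate 2, 18 (90.0%) were higher and 2 lower in OXI-EV, against 84.7% of all miRs listed there higher, and the sums were 78.6 CPM in OXI-EV replicate 3 and 34.3 CPM in GLY-EV replicate 2, a ratio of 2.29. Each of these compares a library with a library and has no replicate.

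Beside other lists of miRs, the members differed in their zeros rather than in their calls, and they were also rarer. The median of the mean counts was 10.9 for the members, against 22.9, 20.4 and 1229 for the Dlk1-Dio3, mirtron-type and muscle lists. As a 0 depends on the limit of 10 counts in a library pair, rarer miRs have more of them. miRs of like abundance were not compared. Of 82 entries of the Dlk1-Dio3 cluster tested, 0 were higher and 1 was lower in OXI-EV past the adjusted threshold, with a median log2 fold change of 0.17. Of 327 mirtron-type entries tested 0 were past it in either direction, with a median of 0.56. Of 9 muscle miRs tested 1 was higher and 5 were lower, with a median of -1.69. The members' median of 0.87 was above those of the 3 lists, and no test of that difference was made.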

How the data were processed

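Small RNA of OXI-EV and GLY-EV was sequenced by the authors in 8 libraries, 4 per group. The authors deposited raw counts for every miR and piRNA entry and library. Their processing notes name cutadapt, STAR and genome build GRCm38. The versions and the counting step are not stated in the sources used here. Library sizes were the mapped reads in the authors' deposited table of read counts by class. 4 columns of the deposited table hold the authors' own log2 fold change, p-value and related values, and were not used; 0 columns of other samples were found.

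edgeR 4.0.16 (limma 3.58.1, R 4.3.3) was run on all 1569 miRs passing the filter (10 counts in 4 libraries), with no further scaling factor. Standard errors were taken as the size of the fold change over the root of the F statistic. The median of the members' mean counts was 10.9. Wilson intervals had a level of 95% and cover counting error only. Single members were also compared by exact permutation. The test was run on simulated counts of 1414 miRs, where 0 of 1230 unchanged miRs were called. Hairpins came from GENCODE M21 and sequences from RefSeq. Python 3.11.15 with pandas 2.3.3, numpy 2.4.6 and scipy 1.17.1 was used for tables.

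Members, lists and tests were chosen with earlier results of these data known. The members named are the 10 most abundant, any past the threshold, up to 5 per direction with the smallest p and no overlap of groups, the most abundant 5p and 3p entry of each family, and miR-669a-5p, miR-467a-5p, miR-466l-3p and miR-466h-5p where measured; other members are given in counts and ranges, or named after their values were seen. Alternatives were TMM, total miR counts and DESeq2 size factors as scale, other filters, limma-voom, DESeq2 1.42.0, the likelihood ratio test of edgeR, blocks, and leaving out each library. Replacement of listed zeros by 5 or 9, a block by library pair and a restriction to miRs counted in every library were added after seeing the data.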

Additional observations from a re-analysis of the deposited data

Results flagged for a closer look

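In 30 groups of 4 libraries (15 named members, OXI-EV and GLY-EV), 6 had a library that stood far from the other 3 by Dixon's criterion. Chance gives this in about 1 of 20 groups of normally distributed values. Low counts with listed zeros need not follow that rate. miR-466n-3p was at 20.5 CPM (85 counts) in OXI-EV replicate 2, with the next OXI-EV library at 3.08 CPM, and miR-466d-3p was at 17.8 CPM (74 counts) in the same library, with the next at 3.49 CPM. miR-466i-5p was at 46.1 CPM (239 counts) in GLY-EV replicate 4, with the next GLY-EV library at 15.9 CPM. miR-466g was at 15.8 CPM (90 counts) in GLY-EV replicate 3, with the next at 3.48 CPM. miR-669l-3p and miR-466h-5p were each at 0.579 CPM (3 counts) in GLY-EV replicate 4 and listed at 0 in the other GLY-EV libraries, where a listed 0 can stand for up to 9 counts. With those values at 0 any count would have been flagged, so these flags carry no information. The causes were not tested.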

How the results depend on the processing

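No member passed the adjusted threshold under any fit tried except with the total miR count as library size, where 2 did (the shared miR-297 entry, 2.52, and miR-669i, 2.01), against 15.0% of all miRs. DESeq2 gave an adjusted p for 4 of the 16 members. The number without any single library was 0 to 0 members. The members' median log2 fold change, 0.87, lay between 0.28 (without OXI-EV replicate 2) and 1.26 when single libraries were left out, and the log2 ratio of their summed level, 0.60, between 0.36 and 1.03. That ratio moved further with the scale, to 0.19 with TMM, 0.22 with DESeq2 size factors and 1.09 with the total miR count. With at least 50 counts in 4 libraries only miR-466i-5p was left, with a median of -1.01 and a summed level of -1.01. The sign turned for the shared entry of miR-669a-5p and miR-669p-5p with TMM (-0.29) and DESeq2 size factors (-0.28), and without single libraries (-0.42 to 1.16), for miR-669c-5p with TMM (-0.094) and DESeq2 size factors (-0.068), and for miR-466g with a block by library pair (0.52). In that block only the 2 library pairs with both groups bear on the group difference. When single libraries were left out, miR-466g lay between -2.79 and -0.27, miR-467e-5p between 0.66 and 1.49, miR-467b-3p between 0.24 and 1.01, miR-466l-3p between 0.61 and 1.26, and miR-669c-5p between 0.074 and 0.68. The other 249 values of single members kept direction and side of the threshold; values of DESeq2 with no adjusted p were left out. The cause was not tested.

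Between libraries of equal replicate number, deviations from the group means correlated at 0.16, -0.15, -0.13 and 0.05 for numbers 1 to 4. Replicate number 2 joined unequal preparation numbers, 3 in OXI-EV and 2 in GLY-EV. In a block by preparation number these libraries each stood alone, so neither added to the estimated group difference. Between the groups the highest correlation was 0.40, for OXI-EV replicate 3 with GLY-EV replicate 2, which share their zeros. These values cannot decide whether libraries of both groups came from the same mouse. A replicate block gave 0 members and 42 of all miRs (6 higher, 36 lower in OXI-EV) past the threshold, against 29 without it, and turned miR-669a-5p and miR-669p-5p to -0.050. A block by preparation number gave 0 members, a median of 0.20 (0.09 over all miRs), -3.61 for miR-466g (adjusted p = 0.0543 by edgeR, from 0.0543 to 0.953 over its alternatives), -1.25 for miR-669a-5p and miR-669p-5p, and -0.030 for miR-466i-3p. Counts of all miRs called were 86 with TMM, DESeq2 size factors or DESeq2, 236 with total miR counts, 64 with the filter of 50 counts, 54 with the likelihood ratio test, 50 and 51 with listed zeros set to 5 and 9, and 60 for miRs counted in every library. At these depths, with median counts near 10, listed zeros limit what can be said of the 15 members not tested.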
